A study of Mus musculus with 14 samples.

Results

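The HDAC3 corepressor and the PAF1 complex, which the study describes among the protein partners of SETD5 in preadipocytes, were followed here as messenger RNA. The cells were of the 3T3-L1 line of mouse fibroblasts, which become fat cells when treated with hormones. The 10 genes were taken by name as 4 members of the corepressor (Hdac3, Tbl1x, Tbl1xr1 and Gps2) and 6 members of the PAF1 complex (Paf1, Ctr9, Leo1, Cdc73, Rtf1 and Wdr61). They are 10 of the 18193 genes that have a probe set of their own on the array, with 30 probe sets of 34944. Among the proteins found with SETD5 the study names HDAC3, TBL1X, TBL1XR1, PAF1, CTR9, LEO1 and CDC73. Its text does not name GPS2, RTF1 or WDR61. Cells carried an empty retrovirus (Empty) or a retrovirus for V5-tagged SETD5 under a weak LTR promoter, and both arms were stably transduced populations of the same line. Both were grown to confluence and then given insulin, dexamethasone and isobutylmethylxanthine for 48 h, followed by insulin alone. RNA was taken at 0, 12, 24, 36, 48, 96 and 192 h of differentiation, with 1 Affymetrix array for each virus and hour, which gives 14 arrays and no replicate at any hour. No source used here says whether the cultures of different hours were separate experiments, and a difference between the arms cannot be told apart from any other difference between the transduced populations.

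HDAC3 is a histone deacetylase that works inside nuclear receptor corepressor complexes. TBL1X and TBL1XR1 are related WD40 proteins that anchor these complexes on chromatin and serve in their exchange for coactivators, and GPS2 is a small subunit of the same core. The PAF1 complex travels with RNA polymerase II on transcribed genes, where PAF1, CTR9, LEO1, CDC73 and RTF1 assist elongation and the histone marks that go with it. WDR61 also belongs to the SKI complex of RNA decay. Nuclear receptor corepressors hold fat cell genes silent in preadipocytes, and these genes are transcribed as the cells differentiate.

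Values are array intensities as deposited, and a gene was tested where at least 3 of 14 arrays reached an intensity of 50. In all, 8682 genes passed, among them 9 of the 10 members. Gps2 had intensities of 11.6 to 25.9 over the 14 arrays, below 50 on each, so it was not tested. Differences are log2 of the SETD5 intensity minus log2 of the Empty intensity at the same hour, after an offset of 16 was added to each, and errors are limma's standard errors (SE). Genes with an adjusted p under 0.05 by limma over all 8682 genes are said to be called. Each gene was read from its brightest probe set, and intensities of different probe sets are not compared with each other. In these RNA samples of whole cultures, fewer cells of a type and less RNA per cell cannot be told apart.

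Markers of the labelled cells were present. All 10 fibroblast and preadipocyte markers passed the filter, as did 8 of the 9 adipocyte markers on the array, with Lep below 50 throughout. No macrophage, endothelial or skeletal muscle marker passed. The summed intensity of the adipocyte markers was 1608 at 0 h and 38250 at 192 h with the empty virus, and with SETD5 it was 1789 and 20512. The Setd5 probe set had a mean of 309 with the empty virus and 302 with SETD5 (log2 difference -0.03 ± 0.06, SE, n = 7 hours, limma adjusted p = 0.788). Its probes have no stated position on the transcript, so whether they can detect the viral transcript is unknown, and this value does not check the labels.

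No member was called between the viruses at its main probe set. Over all 7 hours the calls were 0 of 9 members, against 3.62% of all genes tested. In the early hours (0, 12 and 24 h) they were 0 of 9 against 0.0230%, in the late hours (36 to 192 h) 0 of 9 against 12.0%, and for the late minus the early effect 0 of 9 against 0.0230%. Over all hours 2046 of the 8682 genes had an unadjusted p under 0.05, and none of them was a member. The methods' t-test, unpaired and run without regard to hour, gave 421 such genes, 1 after Benjamini-Hochberg adjustment, and no member. It leaves the spread between hours in its error, so it could miss a difference that pairing by hour would show. The median difference of the 9 members was 0.0087 over all hours and -0.05 in the late hours, beside 0.03 and 0.04 for all genes. In the late hours the adipocyte markers had a median difference of -1.47 with 7 of 8 called lower, and 3 of 10 fibroblast markers were called higher. Their part in the members' values was not tested.

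**Figure D1:**
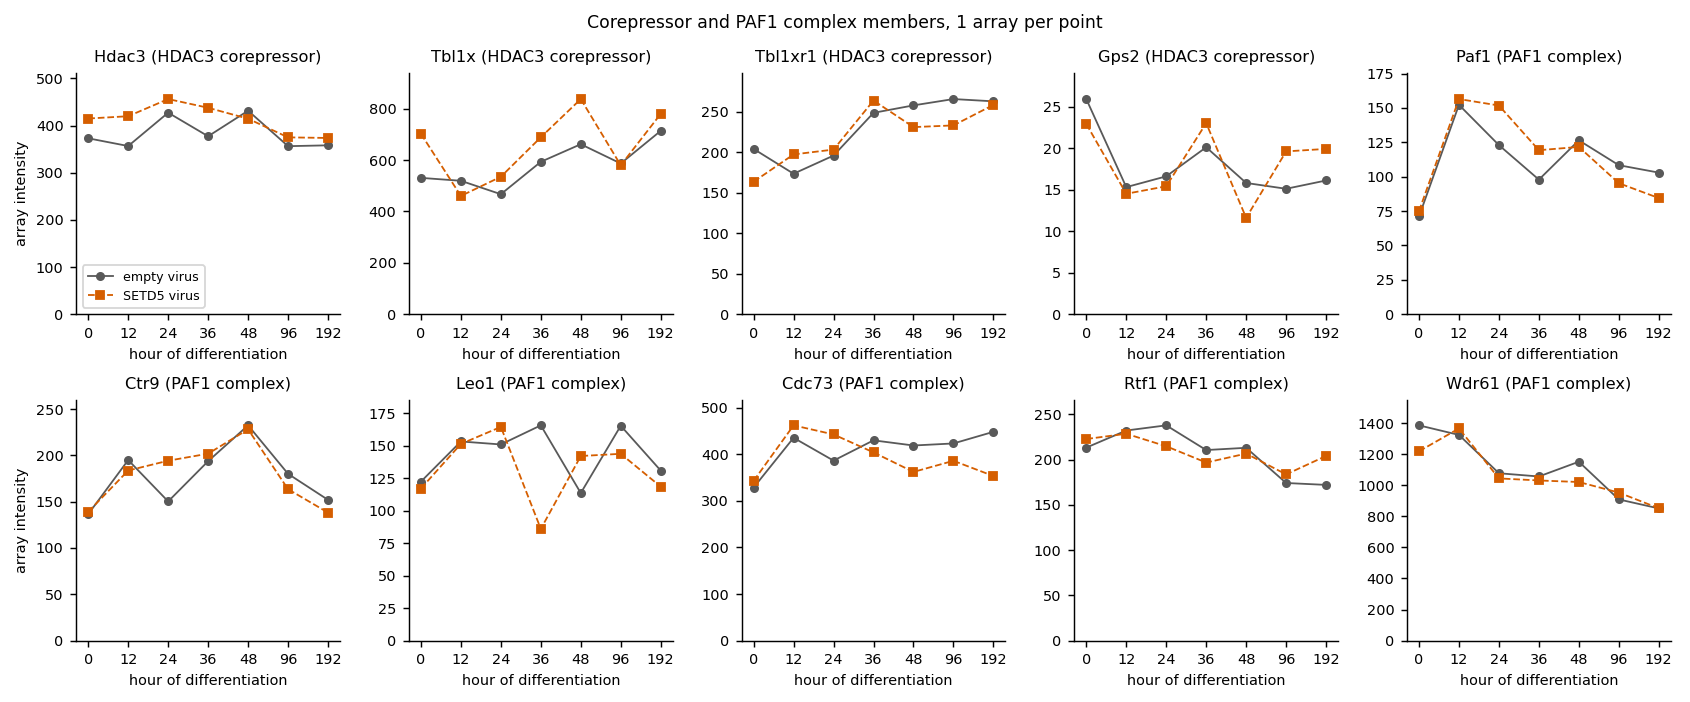
Array intensity (y axis, linear and from 0, with a scale of its own in each panel) of the 10 members over the course (x axis, equally spaced hours) in Empty cells (grey circles, solid line) and in SETD5 cells (orange squares, dashed line), 1 array per point. Paf1 stood lowest at 0 h in both arms, Wdr61 ended at 852 and 853, and the Gps2 panel stays at or below 25.9.

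Hdac3, the deacetylase of the corepressor, had the narrowest range of the 9 tested members. Its intensity had a lowest, median and highest value of 356.3, 373.0 and 431.5 with the empty virus and 373.7, 414.9 and 456.2 with SETD5, and these ranges overlapped. It was higher with SETD5 at 6 of 7 hours, by a mean log2 difference of 0.11 ± 0.06 (SE, n = 7 hours), with a 95% interval of -0.02 to 0.23 that includes 0 (limma adjusted p = 0.291). The range of Hdac3 over all 14 arrays was 0.34 on the log2 scale, and only 0.933% of the genes tested had a smaller one. It was not called with hour (adjusted p = 0.253). The probe set of Hdac3 has the suffix _s_at, which Affymetrix gives where probes can match more than 1 transcript, as do the main probe sets of Tbl1xr1 and Ctr9.

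Tbl1x, one of the exchange subunits, changed with hour in an uneven course at its main probe set. With the empty virus its intensities from 0 to 192 h were 530.6, 519.2, 467.0, 593.0, 661.5, 586.5 and 713.5. With SETD5 they were 702.0, 460.3, 534.8, 688.5, 837.2, 579.6 and 779.5. Both arms were low at 12 or 24 h and high at 48 and 192 h. Its other tested probe sets went the other way at those last 2 hours. Against 0 h the changes at 48 and 192 h were -0.27 and -0.19 for 1434643_at and -0.52 and -0.06 for 1434644_at. The main probe set had 0.28 at both hours, and none of these changes was called. Tbl1x was higher with SETD5 at 5 of 7 hours, by 0.15 ± 0.08 (95% interval -0.02 to 0.32, limma adjusted p = 0.256).

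Tbl1xr1, the close relative of Tbl1x, rose over the hours of the course in both arms at its main probe set. With the empty virus its intensities were 203.9, 173.3, 195.7, 248.4, 257.6, 265.4 and 262.6 in order of hour. With SETD5 they were 163.4, 197.1, 203.1, 263.6, 230.8, 232.9 and 258.2. In each arm the values of 0 to 24 h lay below all those from 36 h on. Over both viruses, Tbl1xr1 rose above its 0 h level at 36, 48 and 192 h, by 0.45, 0.39 and 0.48 (each ± 0.13) on the log2 scale (limma adjusted p = 0.0252, 0.0417 and 0.0301). At 96 h the change was 0.41 (adjusted p = 0.0561). With no filter on intensity the calls at 48 and 192 h were lost (adjusted p = 0.0740 and 0.0545). The other tested probe sets of Tbl1xr1, 1450739_at and 1455109_at, were not called with hour (adjusted p = 0.415 and 0.181). The virus difference of Tbl1xr1 was -0.05 ± 0.07 over all hours (95% interval -0.20 to 0.11, adjusted p = 0.697).

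Paf1, which gives the elongation complex its name, changed more with hour than any other tested member. Its intensities with the empty virus were 71.1, 152.3, 123.0, 97.9, 126.5, 108.4 and 103.0 in order of hour. With SETD5 they were 75.0, 156.5, 151.8, 119.3, 121.7, 95.3 and 84.5 at the same hours. In each arm 0 h was the lowest value and 12 h the highest. Against 0 h Paf1 rose 1.91-fold at 12 h (0.94 ± 0.14 on the log2 scale, SE, 2 arrays an hour, limma adjusted p = 0.000500) and by 0.78, 0.48 and 0.65 at 24, 36 and 48 h (adjusted p = 0.00184, 0.0284 and 0.00618). At 96 and 192 h the changes were 0.40 and 0.30 and were not called (adjusted p = 0.0821 and 0.162). The virus difference of Paf1 was 0.02 ± 0.08 (95% interval -0.14 to 0.19, adjusted p = 0.876), positive at each hour up to 36 h and negative at each from 48 h on. The late minus early difference of Paf1 was not called.

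Because Paf1 moved most with hour within the complex, the 250 bases before its start are shown beside those of Cdc73 and Rtf1, the 2 other members of the complex whose window lies wholly before the gene. The sequences are from RefSeq, build GRCm38.p6, at chr7:28392746-28392995 on the plus strand for Paf1, chr1:143702894-143703143 on the minus strand for Cdc73 and chr2:119674818-119675067 on the plus strand for Rtf1. Capitals mark matches on either strand to GGGCGG (the GC box), CCAAT or CCGGAAG (an ETS motif).
Paf1: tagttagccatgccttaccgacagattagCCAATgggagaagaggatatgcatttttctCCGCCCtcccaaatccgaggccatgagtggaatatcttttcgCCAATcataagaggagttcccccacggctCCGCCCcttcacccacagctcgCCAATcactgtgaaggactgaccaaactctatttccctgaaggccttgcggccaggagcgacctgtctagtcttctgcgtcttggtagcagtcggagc
Cdc73: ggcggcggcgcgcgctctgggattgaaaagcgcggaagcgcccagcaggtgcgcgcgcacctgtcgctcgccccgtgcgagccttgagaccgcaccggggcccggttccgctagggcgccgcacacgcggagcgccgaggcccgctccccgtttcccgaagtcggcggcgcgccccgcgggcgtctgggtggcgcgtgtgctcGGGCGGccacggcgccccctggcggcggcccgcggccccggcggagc
Rtf1: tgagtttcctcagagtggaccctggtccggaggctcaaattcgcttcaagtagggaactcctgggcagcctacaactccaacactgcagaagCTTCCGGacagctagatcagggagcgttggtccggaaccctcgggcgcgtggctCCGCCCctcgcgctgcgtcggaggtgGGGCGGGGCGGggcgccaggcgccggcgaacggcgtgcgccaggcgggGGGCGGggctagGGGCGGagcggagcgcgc
The Paf1 window held CCAAT at -221, -149 and -98 from the start and a GC box at -191 and -120. Cdc73 had 1 GC box, and Rtf1 had 5 GC boxes, of which those at -78 and -73 share a base, and an ETS match at -158. Promoter windows were read for 7 of the 10 members, and not for Hdac3, Ctr9 and Wdr61. Of the 7, Tbl1x, Tbl1xr1, Gps2 and Leo1 are counted but not printed because their window overlaps the annotated gene. Among these 7, GGGCGG was found in 6 (32.7% of all 32851 promoters), CCAAT in Gps2 and Paf1 (33.8%), CCGGAAG in Gps2 and Rtf1 (6.91%), TGACG in Tbl1x (17.8%) and ATGGCGG, a YY1 motif, in Tbl1x (2.21%). None of the 7 windows held TATAAA (12.4% of all promoters), CACGTG (6.02%), TGACGTCA, which contains TGACG (1.55%), or GCGCATGC (2.26%). The share of G and C was 53.6% in the Paf1 window, 80.4% in that of Cdc73 and 70.4% in that of Rtf1, beside a median of 52.4% over all promoters. These matches describe the letters alone.

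Ctr9, the scaffold of the PAF1 complex, rose towards 48 h in both arms and fell back at its main probe set. With the empty virus its main probe set gave 136.6, 195.0, 150.3, 193.8, 232.5, 180.1 and 152.0 in order of hour. With SETD5 it gave 139.1, 183.7, 194.3, 201.9, 228.2, 163.5 and 138.2. The highest value was at 48 h in each arm, and 0 and 192 h were near each other. Against 0 h Ctr9 rose by 0.42 at 12 h, by 0.47 at 36 h and by 0.68 ± 0.13 at 48 h (limma adjusted p = 0.0224, 0.0202 and 0.00318). Leaving out the 48 h pair ended its call by the test of any change with hour (adjusted p = 0.0584), and its other tested probe sets, 1422680_at and 1422681_at, were not called with hour (adjusted p = 0.255 and 0.542). The virus difference at this probe set was 0.01 ± 0.07 (95% interval -0.14 to 0.16, adjusted p = 0.953).

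Leo1, a subunit that helps to hold the complex on chromatin, showed no call with virus or hour. Its lowest, median and highest intensities were 113.5, 150.9 and 165.6 with the empty virus and 85.9, 142.0 and 164.4 with SETD5, and these ranges overlapped. The SETD5 array of 36 h had the lowest value of all 14, 85.9 against 165.6 with the empty virus at that hour. The all-hours difference of Leo1 was -0.12 ± 0.11 (95% interval -0.37 to 0.14, limma adjusted p = 0.559), and it turned to 0.0027 without the 36 h pair.

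Cdc73, which encodes parafibromin, rose at 12 h by 0.40 ± 0.14 against 0 h at its main probe set (limma adjusted p = 0.0327). That probe set was not called at later hours or by the test of any change with hour (adjusted p = 0.259). Another, 1429940_at, rose by 0.71, 0.41, 0.44 and 0.41 at 12, 24, 36 and 48 h (limma adjusted p = 0.000545, 0.0136, 0.0133 and 0.0158). A further one, 1443986_at, was not called with hour (adjusted p = 0.544). At the main probe set the intensities were 328.8, 435.8, 386.7, 430.3, 419.2, 423.6 and 448.6 with the empty virus and 343.2, 462.5, 443.0, 404.4, 362.4, 386.3 and 353.6 with SETD5. At 0, 12 and 24 h the SETD5 value of Cdc73 was the higher one, and at each hour from 36 h on it was the lower one. The late difference of Cdc73 was -0.19 ± 0.08 (limma adjusted p = 0.133), and its late minus early difference was -0.30 ± 0.12 (adjusted p = 0.367). Neither passed the test over all genes.

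Rtf1, which recruits the machinery of histone H2B ubiquitination, had a narrow spread, with 172.0, 213.0 and 237.8 as its lowest, median and highest intensity with the empty virus and 183.6, 206.6 and 228.5 with SETD5. The virus difference of Rtf1 was 0.01 ± 0.06 (95% interval -0.13 to 0.15, limma adjusted p = 0.944), and it was not called with hour (adjusted p = 0.129).

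Wdr61, the subunit shared with the SKI complex, fell over the hours of the course in both arms. With the empty virus its intensities were 1387.4, 1325.7, 1078.6, 1057.8, 1152.9, 909.8 and 851.8 in order of hour. With SETD5 they were 1219.9, 1367.4, 1045.3, 1032.1, 1022.1, 953.9 and 852.9. The values of 96 and 192 h were the lowest pair in each arm. Against 0 h Wdr61 fell by 0.47 at 96 h and by 0.60 ± 0.11 at 192 h on the log2 scale (limma adjusted p = 0.0157 and 0.00513). At 24, 36 and 48 h its changes were -0.29, -0.31 and -0.26 (adjusted p = 0.0568, 0.0528 and 0.0892). Another probe set of Wdr61 (1459985_at) also changed with hour (adjusted p = 0.0307) and had 732.6 at 0 h and 465.0 at 192 h with the empty virus, beside 603.2 and 523.4 with SETD5. Its changes from 0 h at 96 and 192 h were not called (adjusted p = 0.122 and 0.0808). The virus difference of Wdr61 was -0.05 ± 0.06 (95% interval -0.17 to 0.08, adjusted p = 0.656).

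**Figure D2:**
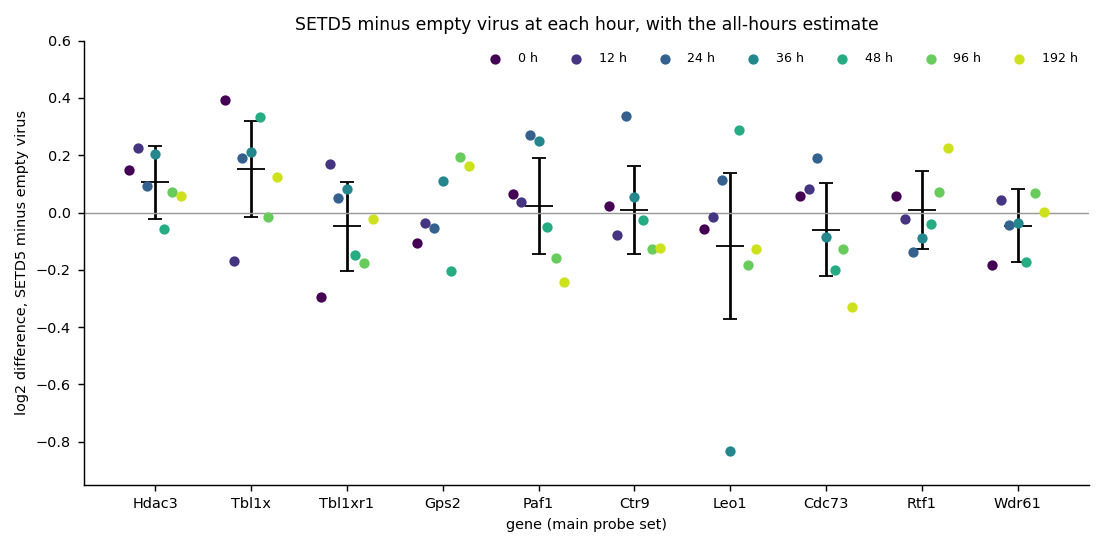
SETD5 minus empty virus log2 difference (y axis) of each member's main probe set, 1 point per hour coloured by hour, with the all-hours estimate as a black bar and its 95% interval as whiskers (none for Gps2, which was not tested). All 9 intervals include 0, and the Leo1 point at 36 h (-0.83) is the lowest on the plot.

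By the limma F-test of any change with hour, 5 of 9 members were called, Tbl1x, Tbl1xr1, Paf1, Ctr9 and Wdr61, against 66.0% of all genes tested. The largest difference between any pair of hours was 0.94 for Paf1, 0.68 for Ctr9, 0.65 for Wdr61, 0.59 for Tbl1x and 0.48 for Tbl1xr1 on the log2 scale (adjusted p = 0.00303, 0.00994, 0.00355, 0.0160 and 0.0184). The median of this range was 0.48 over the 9 members and 0.74 over all genes. At single hours against 0 h, 13 of 54 comparisons of a member were called. At 12 h they were Paf1, Ctr9 and Cdc73, all upwards (47.8% of all genes were called), and at 24 h Paf1 upwards (38.4%). At 36 h (29.4%) and at 48 h (34.2%) they were Paf1, Ctr9 and Tbl1xr1, all upwards. At 96 h the call was Wdr61 downwards (15.6%), and at 192 h the calls were Tbl1xr1 upwards and Wdr61 downwards (19.6%). Tbl1x was called by the F-test and at no single hour. The share of the 9 members called was slightly above that of all genes at 36 and 192 h and below it at the other 4 hours.

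**Figure D3:**
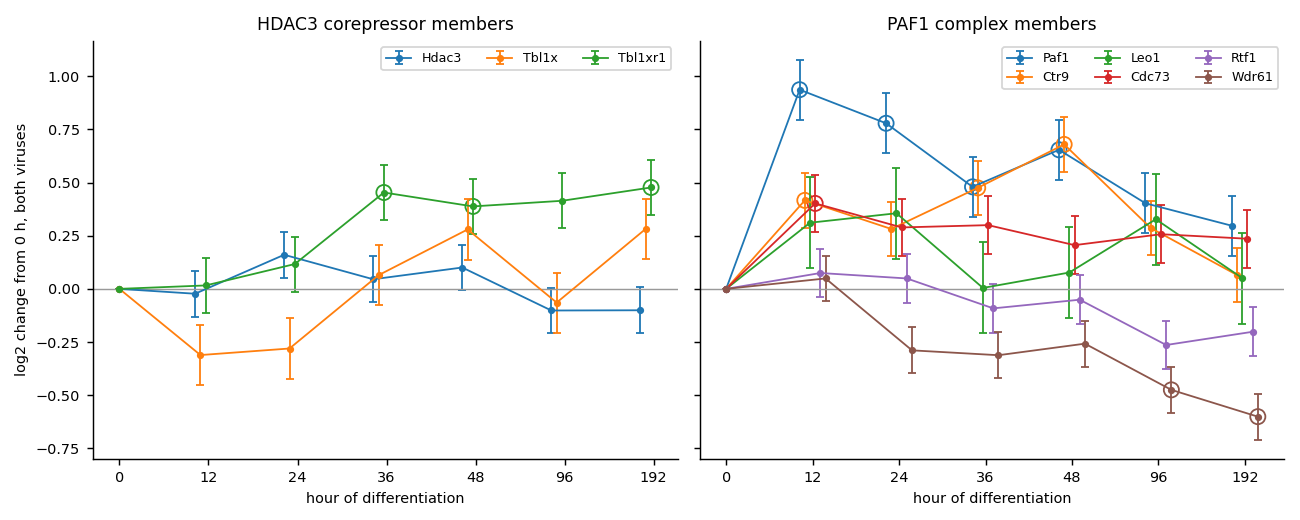
Change from 0 h (y axis, log2, mean of both viruses) of the 9 tested members (x axis, equally spaced hours), with limma's standard errors as bars and a ring around each value with an adjusted p under 0.05. Paf1 peaks at 12 h (0.94), Ctr9 at 48 h (0.68), and Wdr61 ends lowest at 192 h (-0.60).

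Other probe sets of the same genes gave other values for the virus. The 10 members have 30 probe sets, of which 18 passed the filter and 12 did not, the latter with intensities from 0.70 to 61.7. When each of 14412 probe sets was tested on its own, 5 of the members' 9 other probe sets were called lower with SETD5 over all hours and 0 higher, against 2.76% of all probe sets called lower. They were 2 of Tbl1x, 2 of Ctr9 and 1 of Cdc73, and each was lower with SETD5 at 7 of 7 hours, 0 h included. Probe sets of 1 gene are not independent units in this count. Of these, Ctr9 1422681_at reached 50 on Empty arrays only, so it passed the filter through the arm in which it was higher. Its call is in the count but is not taken as support.

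Tbl1x 1434644_at gave 136.6, 99.0, 89.1, 108.0, 85.1, 129.3 and 125.3 with the empty virus and 69.5, 65.9, 19.8, 40.6, 46.9, 54.8 and 68.9 with SETD5, in order of hour. Each SETD5 value lay below each Empty value. The difference was -0.92 ± 0.11 (1.90-fold lower, n = 7 hours, limma adjusted p = 0.00307), and this probe set was also called with hour (adjusted p = 0.0371). Tbl1x 1434643_at gave 345.1, 223.7, 266.2, 279.6, 247.8, 369.6 and 329.3 with the empty virus and 246.5, 201.3, 166.7, 226.1, 231.0, 204.0 and 194.7 with SETD5. The arms overlapped here, the difference was -0.45 ± 0.10 (adjusted p = 0.0293), and it was not called with hour (adjusted p = 0.264). This call was lost without the 0, 24, 36 or 96 h pair (adjusted p = 0.0605, 0.0797, 0.0587 and 0.0840). The main probe set of Tbl1x, 1455042_at, was higher with SETD5 at 5 of 7 hours, and all 3 carry the same source sequence in the platform annotation.

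Ctr9 1422680_at gave 141.4, 143.9, 134.9, 146.1, 181.7, 202.4 and 153.4 with the empty virus and 75.0, 128.2, 63.3, 102.1, 95.2, 86.8 and 83.7 with SETD5. The highest SETD5 value, 128.2, lay below the lowest Empty value, 134.9. The difference was -0.72 ± 0.11 (1.64-fold lower, limma adjusted p = 0.00614). Ctr9 1422681_at, a dim probe set, gave 47.2 to 64.5 with the empty virus and 28.9 to 46.4 with SETD5, again without overlap (-0.57 ± 0.08, adjusted p = 0.00519). The calls of both Ctr9 probe sets and of Tbl1x 1434644_at were kept when any 1 hour was left out, with adjusted p up to 0.0255, 0.0211 and 0.0148. With SETD5 Ctr9 1422681_at was below the filter of 50 at each hour, so it was tested through its Empty values alone. For this probe set the call and the lack of overlap are therefore not taken as support for a virus difference. The size of its difference depends on the offset, with -0.71 at an offset of 4 and -0.32 at 64. Likewise Tbl1x 1434644_at had -1.09 and -0.59. Both Ctr9 probe sets share their source sequence with the main probe set of Ctr9 in the platform annotation.

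Cdc73 1443986_at gave 58.9 to 66.3 with the empty virus and 35.9 to 58.9 with SETD5 (-0.31 ± 0.08, limma adjusted p = 0.0432), and its call was lost whichever of the 7 hours was left out (adjusted p from 0.0514 to 0.111) and with an offset of 64 (0.0675). Cdc73 1429940_at was not called with virus (0.06, adjusted p = 0.510) and changed with hour (adjusted p = 0.00590), with 68.7 and 70.4 at 0 h and 128.0 and 120.1 at 12 h for the empty and the SETD5 virus. The other tested probe sets of Tbl1xr1 had virus differences of -0.22 and 0.15 and were not called (adjusted p = 0.223 and 0.403).

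The spread between probe sets of 1 gene in the all-hours difference was 1.08 for Tbl1x and 0.724 for Ctr9 on the log2 scale. Among 3620 genes with at least 2 tested probe sets the median spread was 0.129, and 99.4% of them had a smaller spread than Tbl1x and 97.4% a smaller one than Ctr9. For 245 of these genes (6.77%) another probe set was called lower while the main one was not called. Tbl1x, Ctr9 and Cdc73 were among them, and Tbl1xr1 and Wdr61, the other members with several tested probe sets, were not. The positions of the probes on the transcripts were not used here, so the values cannot be assigned to transcript forms. As a measure of RNA quality, the ratio of the 3' to the 5' probe set was 1.57 to 2.51 for Actb with the empty virus and 1.58 to 2.26 with SETD5, and higher with SETD5 at 1 of 7 hours. For Gapdh it was 0.820 to 0.909 and 0.838 to 0.880, and higher with SETD5 at 3 of 7 hours. The part of RNA quality in the probe set differences was not tested.

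**Figure D4:**
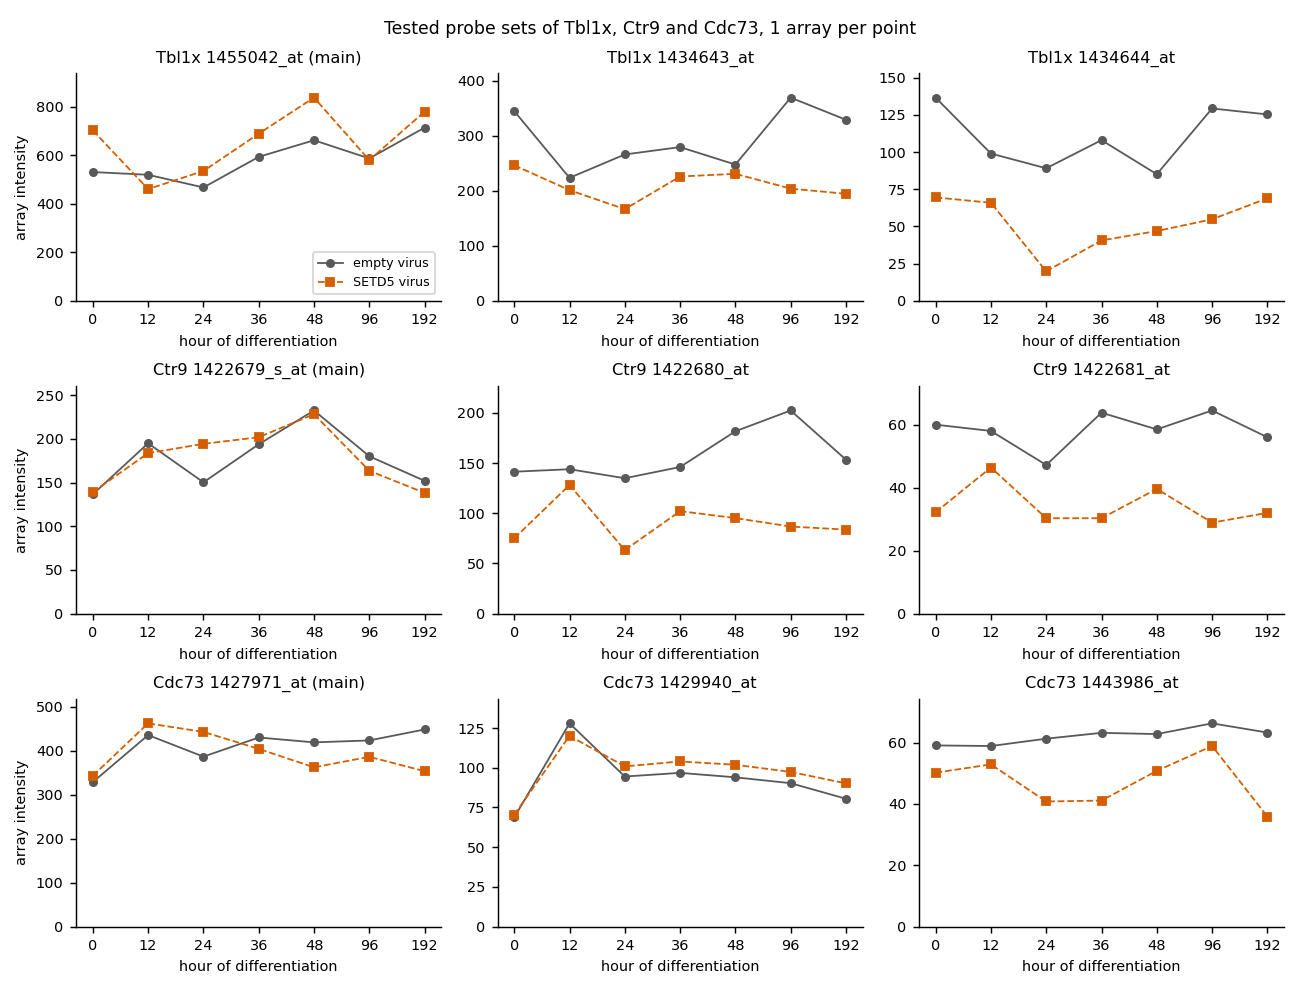
Array intensity (y axis, linear and from 0) of the 9 tested probe sets of Tbl1x (top), Ctr9 (middle) and Cdc73 (bottom) over the course (x axis, equally spaced hours) in Empty cells (grey circles, solid line) and in SETD5 cells (orange squares, dashed line), 1 array per point. The arms do not overlap for Tbl1x 1434644_at, Ctr9 1422680_at and Ctr9 1422681_at and cross for the main probe set of each gene.

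The corepressor works with other proteins that were followed as lists. Their counts stand beside 3.62% of all genes called with virus over all hours, 12.0% late and 66.0% called with hour. Of 7 tested genes of other HDAC3 corepressor proteins none was called with virus over all hours or late, and 4 changed with hour. Ski is a corepressor of SMAD signalling whose protein the study also found with SETD5. Its late difference was 0.30 (limma adjusted p = 0.0571), and it fell by 0.78 at 12 h against 0 h (adjusted p = 0.00127). Bcl6, a repressor that recruits these complexes, had a late difference of -0.60 (adjusted p = 0.0579). Skil, a relative of Ski, rose by 0.48 at 12 h (adjusted p = 0.00451).

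Among 19 tested class I deacetylases and members of other corepressor complexes, 2 were called lower with SETD5 over all hours and none higher, and 10 changed with hour, where 66.0% of all genes did. Chd4, the motor of the NuRD complex, was lower by a log2 difference of -0.64 (limma adjusted p = 0.00979), and Gatad2b, another NuRD subunit, by -0.40 (adjusted p = 0.0268). Both were also called late (-0.67 and -0.39, adjusted p = 0.0115 and 0.0421). Chd4 had 579.4 at 0 h and 740.8 at 192 h with the empty virus, beside 387.5 and 366.2 with SETD5. With hour, Sap30 of the SIN3 complex rose by 0.99 at 12 h and fell by 1.25 at 192 h (adjusted p = 0.00133 and 0.00141), and Rcor3, a CoREST protein, fell by 0.83 at 12 h (adjusted p = 0.000777).

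All 5 tested class II deacetylases changed with hour (66.0% of all genes) and none was called with virus over all hours or late. Hdac5 fell by 1.50 and Hdac11, a class IV enzyme kept in that list, by 1.09 at 12 h against 0 h (limma adjusted p = 6.1e-05 and 0.000396). Hdac7 and Hdac4 had late virus differences of 0.28 and 0.25 (adjusted p = 0.0940 and 0.0984). Of 13 histone acetyltransferases, the enzymes that oppose HDAC3, none was called over all hours and 2 were called higher with SETD5 late (12.0% of all genes were called late), Ncoa3 (0.58, adjusted p = 0.0106) and Kat6b (0.39, adjusted p = 0.0448). Of these 13, 7 changed with hour (66.0% of all genes), among them Hat1 and Kat2b, which changed by -0.86 and 0.92 at 192 h (adjusted p = 0.00438 and 0.00899).

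Of 29 tested elongation factors and partners of the PAF1 complex, 1 was called higher and 1 lower with SETD5 over all hours, and 2 higher and 1 lower late, where 3.62% and 12.0% of all genes were called. Mllt3, a subunit of the super elongation complex, had a late difference of 0.59 (limma adjusted p = 0.00979), and Ccnt2, a cyclin of P-TEFb, one of 0.53 (adjusted p = 0.0297). Cdk12, a kinase of RNA polymerase II, had -0.36 (adjusted p = 0.0361). With hour, 17 of the 29 were called (66.0% of all genes), with Aff1 and Supt16 as those with the smallest p (adjusted p = 0.000291 and 0.000587). Supt16, a subunit of FACT, rose by 0.46 at 12 h and fell by 0.48 at 192 h (adjusted p = 0.00957 and 0.0207).

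None of 7 genes of the SKI complex and the exosome, the partners of Wdr61 in RNA decay, and none of 10 RNA polymerase II subunits was called with virus over all hours or late. In these lists 6 and 8 genes changed with hour, beside 66.0% of all genes. The exosome genes Dis3 and Exosc2 rose by 0.82 and 0.91 at 12 h (limma adjusted p = 0.000784 and 0.000321), and Dis3 fell by 0.76 at 192 h (adjusted p = 0.00483). Of the 7 genes 5 were called at 12 h, all upwards (47.8% of all genes), and 1 at 192 h (19.6%). A link to Wdr61 was not tested. Skiv2l, the helicase of the SKI complex, had a late virus difference of -0.21 (adjusted p = 0.302). Polr2f and Polr2h, small shared subunits of the polymerases, rose by 1.20 and 0.68 at 12 h (adjusted p = 6.0e-05 and 0.00149). Of the 10 polymerase subunits 6 were called at that hour, all upwards, beside 47.8% of all genes. Polr2b and Polr2a, the large subunits, had late virus differences of -0.17 and 0.12 (adjusted p = 0.293 and 0.438).

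Tbl1x and Paf1 had the widest range over the 14 arrays in their complexes, 0.84 and 0.99 on the log2 scale. The 3 genes whose values were most like those of Paf1 were Ncbp1, a cap-binding protein, Tmem147 and Baz1a, with Pearson correlations of 0.949, 0.946 and 0.939 over the 14 arrays. For Tbl1x they were 2010320M18Rik, Trpc4ap and Mon2, with 0.897, 0.886 and 0.856. These values are for the main probe sets, and likeness to the other tested probe sets of Tbl1x, which gave other courses, was not computed. The gene at rank 100 still had 0.854 with Paf1 and 0.731 with Tbl1x. All these points share the same arrays and the same 7 hours. Between 0 and 12 h Ncbp1 rose from 150.7 to 376.2 in Empty cells, and in SETD5 cells from 166.9 to 406.5.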

How the data were processed

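Messenger RNA of 14 cultures of 3T3-L1 cells was measured on Affymetrix mouse arrays. The deposited table gives a linear intensity for each probe set on each array, which the authors computed with the GeneChip Analysis Suite and scaled. The mean left after trimming 2% at each end was 100 on every array. The highest value was 9698.1. No build applies to the intensities, and positions of probes were not used. Of 45100 probe sets, 34944 had 1 gene symbol in the platform annotation, 932 had several and were left out. The brightest probe set by mean over the 14 arrays stood for a gene. Groups and hours came from the labels. The members, the other lists and the rules for named genes were chosen with earlier results of these data known.

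Linear models were fitted with limma 3.58.1 in R 4.3.3 (lmFit and eBayes, two-sided) to log2(intensity + 16) over all genes that reached an intensity of 50 on 3 arrays, with Benjamini-Hochberg adjustment. The virus effect was tested with hour as a block (6 residual degrees of freedom over all hours, 5 with separate early and late terms), so hours stand in for replicates and p-values measure the spread of the virus difference between hours. The labels' replicate numbers are the hours, which pair the arms. Hour was tested over both arms with virus as a term. Named genes of each list were up to 3 called with virus, in order of the late effect, otherwise the 2 with the largest late effect, and the 2 with the smallest p for hour. Marker lists are given only as counts, medians and sums, without the genes the rule names from them, and 1 other gene is not reported here. Scripts were tested on simulated data. Alternatives were other scalings, offsets, filters, priors, windows and probe sets, no replicate block, the methods' t-test and leaving out each hour. The number of arrays limits the precision. Figures were drawn with matplotlib.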

Additional observations from a re-analysis of the deposited data

Results flagged for a closer look

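In 30 groups of 7 values (each member's intensities in each arm and its differences by hour), 2 held a value far from the rest, and chance alone gives about 1 in 20. The virus difference of Ctr9 at 24 h was 0.34 on the log2 scale, while the other hours lay between -0.13 and 0.05. Its intensities at 24 h were 150.3 with the empty virus and 194.3 with SETD5. The virus difference of Leo1 at 36 h was -0.83, while the other hours lay between -0.18 and 0.29. Each rests on a single pair of arrays.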

How the results depend on the processing

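No member was called with virus at its main probe set under any alternative run, including no replicate block (0 members over all hours, early, late and late minus early) and the methods' t-test. Without the virus as a replicate block 5 members changed with hour. The count for hour was 5 throughout except 4 without the 48 h pair, where Ctr9 had an adjusted p of 0.0584 (limma). Member and hour comparisons called against 0 h numbered 13, with 18 under quantile normalization, 11 with no filter and 9 to 15 without 1 later hour. Without the 0 h pair this comparison has no reference. With no filter the calls of Tbl1xr1 at 48 h (adjusted p = 0.0740) and 192 h (0.0545), Paf1 at 36 h (0.0517) and Cdc73 at 12 h (0.0597) were lost. The members' other probe sets called lower over all hours numbered 5, with 5 under an offset of 4, quantile normalization or a common median, 4 with an offset of 64 and 3 or 4 without 1 hour (3 without the 0, 24, 36 or 96 h pair), an alternative chosen after seeing the data. Among the values given for the main probe sets, signs turned only in those that were not called. Under quantile normalization Rtf1 had -0.0014 over all hours and Wdr61 0.0107 late. With a common median Paf1, Ctr9 and Rtf1 had -0.0068, -0.0233 and -0.0233 over all hours, and with late hours of 96 and 192 h Wdr61 had 0.0345. Without 1 hour the all-hours differences ran from -0.0178 to 0.0681 for Paf1 (-0.0139 without 36 h), from -0.0463 to 0.0314 for Ctr9, from -0.184 to 0.0027 for Leo1 and from -0.0269 to 0.0338 for Rtf1 (-0.00083 without 96 h), and the late ones from -0.0681 to 0.0113 for Wdr61, from -0.151 to 0.0128 for Paf1 and from -0.0204 to 0.0854 for Rtf1. The cause of these changes was not tested. Dim probe sets, near the filter of 50, limit the size of their folds.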
